A study of Rattus norvegicus with 6 samples.

Results

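The glutathione S-transferase (GST) genes described here are 10 named members of the family, namely the alpha class genes Gsta1, Gsta2, Gsta3 and Gsta4, the mu class genes Gstm1, Gstm2 and Gstm3, the pi class gene Gstp1, the theta class gene Gstt1 and the kappa class gene Gstk1. They were found by matching the accession of each array probe to the RefSeq rat genes. That gave 17 of the 61537 non-control probes, and all 10 genes were among the 29938 genes tested. RNA came from the renal cortex, the outer layer of the kidney, of male Sprague-Dawley rats that were bought at 5 weeks of age. Of these, 3 were given phenylbutazone, a non-steroidal anti-inflammatory drug, at 200 mg/kg/day for 4 weeks, and 3 were given its vehicle, corn oil, for the same time. The series design calls the 3 animals of a group biological replicates, and each animal's RNA was put on its own one-colour Agilent array. The members were chosen by their phenylbutazone and vehicle levels on these same arrays, so the differences below describe these 6 arrays and no test is based on them.

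GST enzymes join the thiol of glutathione to electrophilic compounds, among them drug metabolites and products of lipid peroxidation. The cytosolic classes alpha, mu, pi and theta act as dimers, whereas the kappa enzyme sits in mitochondria and peroxisomes. In the rat kidney the alpha enzymes are best known from the proximal tubule and the pi enzyme from more distal segments. Conjugates are pumped out of cells and trimmed by gamma-glutamyl transferase and dipeptidase on the brush border of the proximal tubule, which makes the cortex a main site of mercapturate formation. Several rat GST genes arose by local duplication and are close in sequence to a neighbour, so a probe may also read the neighbour's transcript; transcript identity was not measured here.

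All levels are log2 values in which 0 is the 75th percentile of the processed intensity on that array. Because probes differ in how strongly they bind, levels are compared between arrays and not between genes. The share of probes well above background ran from 65.2% to 68.4% per array, and the 75th percentile from 891 to 1003 intensity units. The phenylbutazone arrays and vehicle 3 were on slide 2, and vehicle 1 and 2 were on slide 1, with a different scan day for each slide. A difference within slide 2 therefore rests on vehicle 3 as the single vehicle array, and fitting slide as a fixed term gives that same value. With limma and Benjamini-Hochberg adjustment 0 of 29938 genes (0%) had an adjusted p under 0.05, and 3657 had an unadjusted p under 0.05. The adjusted p values of the 10 GST genes lay between 0.234 and 0.778. Without vehicle replicate 3 the same fit called 814 genes, none of them a GST gene of this set, and treatment and slide cannot be told apart there.

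Of the 10 genes, 8 had a higher mean after phenylbutazone and 2 a lower one, while 52.8% of all genes tested had a higher mean. The median difference was 0.41 log2 units beside 0.015 over all genes tested. In 5 genes the groups did not overlap, beside 21.5% of all genes tested. In 4 genes all phenylbutazone values lay above all vehicle values, a pattern found in 12.1% of all genes tested, and in 1 gene all lay below, as in 9.39% of all genes. The 4 were Gstp1, Gstm1, Gstm3 and Gsta4, and the 1 was Gstk1. With a difference of at least 0.5 log2 units asked for as well, 3 of the 4 were left, Gsta4 being the exception, beside 2.13% of all genes. Within slide 2 the median of the 10 genes was 0.34 and that of all genes 0.055.

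**Figure D1:**
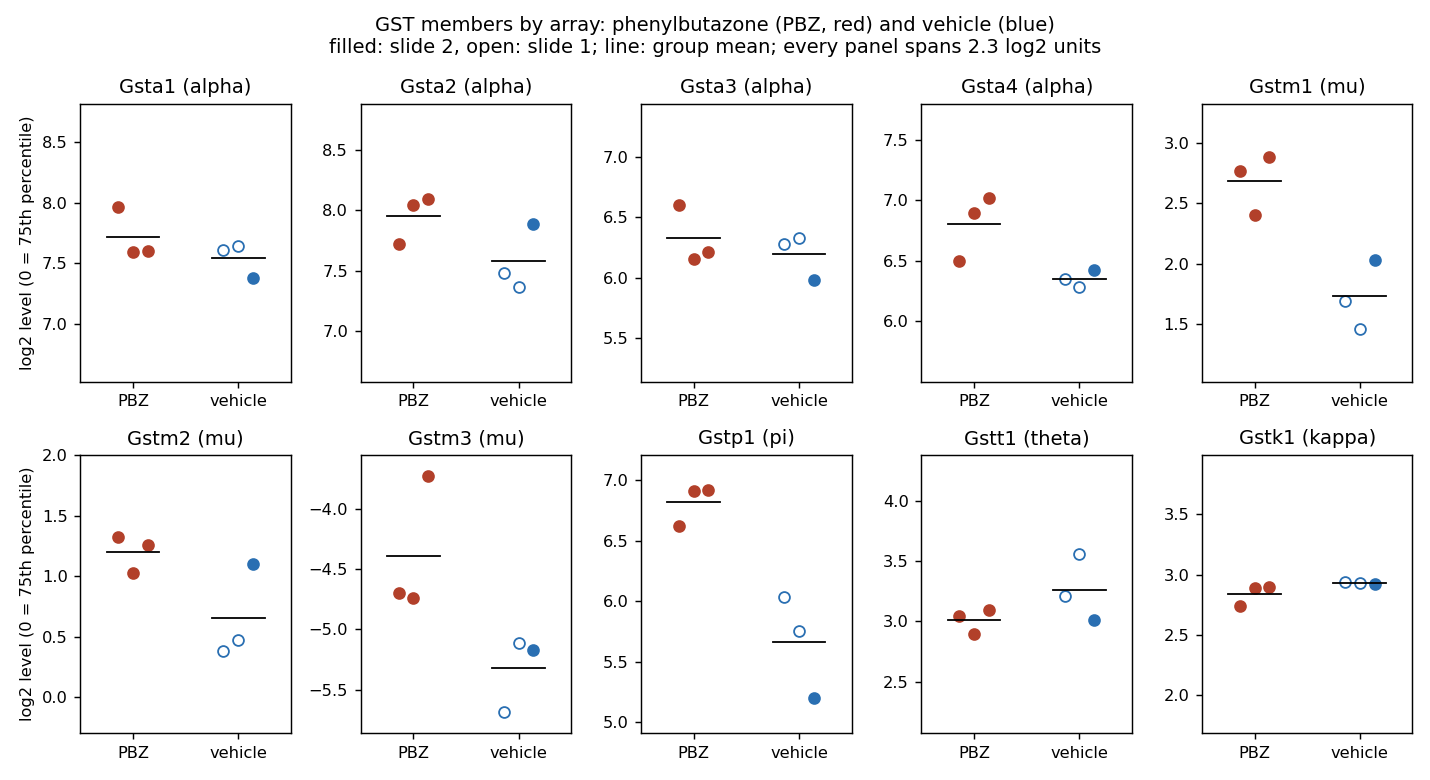
Level of each of the 10 GST genes on the 3 phenylbutazone arrays (red) and the 3 vehicle arrays (blue), as log2 of the processed intensity with 0 at the array's 75th percentile. Lines are group means, filled points belong to slide 2, open points to slide 1, and every panel spans the same range. Gstp1, Gstm1, Gstm3 and Gsta4 have all 3 phenylbutazone values above the vehicle values, whereas in Gsta2 and Gstm2 vehicle 3 lies among the phenylbutazone values.

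Gstp1 encodes the pi class subunit, an enzyme known in the rat as a marker of altered liver foci and as a gene driven by AP-1 and NRF2 type elements. Its promoter and that of Gstm1 are shown because these genes had the largest differences of the set. Those of Gsta3 and Gsta1 are shown because the pair are paralogs whose array values ran together. Each window is the 250 bases before the start of transcription in RefSeq, build GRCr8, read 5′ to 3′. Gstp1 is chr1:210769706-210769955 on the minus strand, Gstm1 is chr2:198343384-198343633 on the minus strand, Gsta3 is chr9:31154739-31154988 on the plus strand and Gsta1 is chr9:31216533-31216782 on the minus strand. Capitals mark the antioxidant response element core TGACNNNGC and the AP-1 site TGACTCA, searched on both strands.
Gstp1: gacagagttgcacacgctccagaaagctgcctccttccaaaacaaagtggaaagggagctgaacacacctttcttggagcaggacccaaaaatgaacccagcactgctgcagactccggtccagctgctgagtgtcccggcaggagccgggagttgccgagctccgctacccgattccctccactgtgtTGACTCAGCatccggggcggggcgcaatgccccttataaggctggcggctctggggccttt
Gstm1: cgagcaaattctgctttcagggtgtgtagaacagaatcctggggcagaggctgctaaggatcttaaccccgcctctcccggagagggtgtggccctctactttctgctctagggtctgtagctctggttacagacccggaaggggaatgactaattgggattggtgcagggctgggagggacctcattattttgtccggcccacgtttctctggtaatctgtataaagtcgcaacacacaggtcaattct
Gsta3: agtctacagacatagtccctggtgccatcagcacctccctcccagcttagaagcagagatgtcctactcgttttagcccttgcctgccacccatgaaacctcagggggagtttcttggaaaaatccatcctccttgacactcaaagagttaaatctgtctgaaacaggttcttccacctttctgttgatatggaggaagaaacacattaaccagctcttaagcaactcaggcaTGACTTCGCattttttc
Gsta1: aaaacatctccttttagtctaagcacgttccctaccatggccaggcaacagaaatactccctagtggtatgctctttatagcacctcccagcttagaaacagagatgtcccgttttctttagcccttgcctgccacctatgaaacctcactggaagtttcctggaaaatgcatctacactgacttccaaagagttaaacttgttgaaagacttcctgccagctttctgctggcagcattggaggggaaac

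In the Gstp1 window both motifs overlap in the letters TGACTCAGC, which begin 61 bases before the start. The Gsta3 window holds 1 core, TGACTTCGC, beginning 17 bases before the start, and the Gstm1 and Gsta1 windows hold neither motif. The core was found in 10.1% and the AP-1 letters in 4.05% of 33469 RefSeq windows of the same length. These are matches of letters only. Gsta3 has 2 windows in RefSeq, of which the first is shown, and the other Gsta3 window holds neither motif. Gstt1 was not among the matched windows. Of 276 pairs among 24 GST windows, Gsta3 with Gsta1 had the highest alignment score, 99.5, and Gstm3 with Gstm1 the next, 36.0, where each matching base adds 1 and mismatches and gaps subtract.

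Gstp1 had levels of 6.62, 6.91 and 6.92 in phenylbutazone rats, against 6.03, 5.75 and 5.20 in vehicle rats. The 3 treated values lay close together, whereas vehicle 3 was the lowest array and vehicle 1 the highest of its group. The means were 6.82 ± 0.17 and 5.66 ± 0.43 (SD, n = 3 each), a difference of 1.16 ± 0.23 (SE) or 2.23-fold. Within slide 2 the difference was 1.62, and it was 0.93 without vehicle 3. The other 2 Gstp1 probes gave 1.20 and 1.21, and within slide 2 they gave 1.36 and 1.43. On all 3 probes the groups did not overlap. The neighbouring pi class gene Gstp3 was level across the arrays, at -2.85, -2.71 and -2.73 in phenylbutazone rats and -2.80, -2.88 and -2.77 in vehicle rats. Its range over the 6 arrays was 0.17 log2 units, beside 1.73 for Gstp1. RefSeq also lists Gstp1 pseudogenes, which the array probes may not separate from Gstp1.

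The mu class genes encode subunits that conjugate epoxides and quinones, and they lie side by side on chromosome 2. Gstm1 had levels of 2.77, 2.40 and 2.89 in phenylbutazone rats, against 1.69, 1.46 and 2.03 in vehicle rats. Its groups did not overlap, and vehicle 3 was the vehicle array nearest to the treated ones. The difference was 0.96 ± 0.20 (SE, n = 3 per group), 1.94-fold, and 0.66 within slide 2.

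Gstm3 was dim, at -4.70, -4.74 and -3.73 in phenylbutazone rats, against -5.68, -5.11 and -5.17 in vehicle rats. Detection above background held on 3 of 3 phenylbutazone and 2 of 3 vehicle arrays, and phenylbutazone 3 stood apart from the other treated arrays. The difference was 0.93 ± 0.31 (SE, n = 3 per group), 0.78 within slide 2 and 0.60 without phenylbutazone 3. Its other probe, well above background on 3 phenylbutazone arrays and 1 vehicle array, gave 0.73. With normexp background correction the difference was 0.29.

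Gstm2 had levels of 1.33, 1.03 and 1.26 in phenylbutazone rats, against 0.38, 0.47 and 1.10 in vehicle rats. Vehicle 3 lay above phenylbutazone 2, so the groups overlapped. The difference of 0.55 ± 0.21 (SE, n = 3 per group) came to 0.10 within slide 2. The split between vehicle 3 and the other vehicle arrays was larger still in Gstm7, a mu gene of the same cluster outside the 10, at 0.66, 0.81 and 0.46 in phenylbutazone rats and -0.36, -0.52 and 1.01 in vehicle rats. Its difference was 0.60 ± 0.41, and -0.37 within slide 2. Gstm4, next to Gstm1, had a difference of 0.11 ± 0.17 and also had its highest value in vehicle 3, at 1.13. Gstm6l of this cluster was likewise highest in vehicle 3, at -3.83. Gstm5 went the other way, with vehicle 3 its lowest vehicle array, at -3.28 beside -2.77 and -2.75.

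The alpha class genes encode the abundant subunits that conjugate alkenals and reduce lipid hydroperoxides. In the RefSeq gene order they form separate groups, with Gsta4, Gsta5 and Gsta2 side by side on chromosome 8 and Gsta3, Gsta1 and Gsta6 on chromosome 9. Symbols in this class have moved over time: RefSeq lists Gsta3 and Gsta5 as older names of Gsta1, and Gsta1 as an older name of Gsta2, so the genes here are those of the probes' accessions.

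Gsta4, whose product is known for conjugating hydroxynonenal, had levels of 6.50, 6.90 and 7.02 in phenylbutazone rats, against 6.35, 6.28 and 6.42 in vehicle rats. Phenylbutazone 1 was close to the vehicle values but above all of them. The difference was 0.45 ± 0.16 (SE, n = 3 per group), 1.37-fold, and 0.38 within slide 2. The other Gsta4 probe gave 0.47, or 0.12 within slide 2, and on it vehicle 3 lay above phenylbutazone 1, so that the groups overlapped.

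Gsta2 had levels of 7.72, 8.04 and 8.10 in phenylbutazone rats, against 7.48, 7.37 and 7.89 in vehicle rats. As in Gstm2, vehicle 3 lay inside the treated range. The difference was 0.37 ± 0.18 (SE, n = 3 per group) and only 0.065 within slide 2, with 0.53 and 0.012 on the other probe. Gsta5, its neighbour, had 7.91, 8.31 and 8.41 in phenylbutazone rats and 7.56, 7.46 and 8.16 in vehicle rats. After each gene's mean was taken off, Gsta2 and Gsta5 differed by at most 0.125 log2 units on any array, beside ranges of 0.73 and 0.955, and whether their probes read each other's transcript was not tested.

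Gsta1 had levels of 7.96, 7.59 and 7.60 in phenylbutazone rats, against 7.61, 7.65 and 7.38 in vehicle rats. Phenylbutazone 1 was its highest array and vehicle 3 its lowest, and the other 4 arrays lay close together. The difference was 0.17 ± 0.15 (SE, n = 3 per group), 0.34 within slide 2, 0.051 without phenylbutazone 1 and 0.090 without vehicle 3. Gsta3 was likewise highest in phenylbutazone 1 and lowest in vehicle 3, at 6.60, 6.16 and 6.21 in phenylbutazone rats and 6.28, 6.33 and 5.98 in vehicle rats. Its difference was 0.13 ± 0.17, 0.35 within slide 2, -0.0093 without phenylbutazone 1 and 0.021 without vehicle 3. It was 0.21 without phenylbutazone 2 and 0.19 without vehicle 2. Another Gsta3 probe gave 0.24 with groups that only just did not overlap, phenylbutazone 2 being at 5.666 and vehicle 2 at 5.662. The third gave 0.35 with overlap, and on it phenylbutazone 3, at 1.40, lay above phenylbutazone 1, at 1.22. Centred on their means, Gsta1 and Gsta3 differed by at most 0.063 on any array, beside ranges of 0.59 and 0.62, and whether their probes read each other's transcript was not tested.

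The chromosome 8 and chromosome 9 alpha genes thus ran differently over the arrays. Phenylbutazone 1 was the lowest treated array for Gsta4, Gsta5 and Gsta2 and the highest for Gsta3 and Gsta1. Vehicle 3 was the highest vehicle array for Gsta4, Gsta5 and Gsta2 and the lowest for Gsta3, Gsta1 and Gsta6. Gsta6, the third alpha gene of the chromosome 9 group, did not follow Gsta1 among treated arrays, since its highest value was in phenylbutazone 3. Its levels were 2.63, 2.80 and 3.30 in phenylbutazone rats and 2.51, 2.48 and 2.07 in vehicle rats, a difference of 0.56 ± 0.22 (SE, n = 3 per group) with no overlap.

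**Figure D2:**
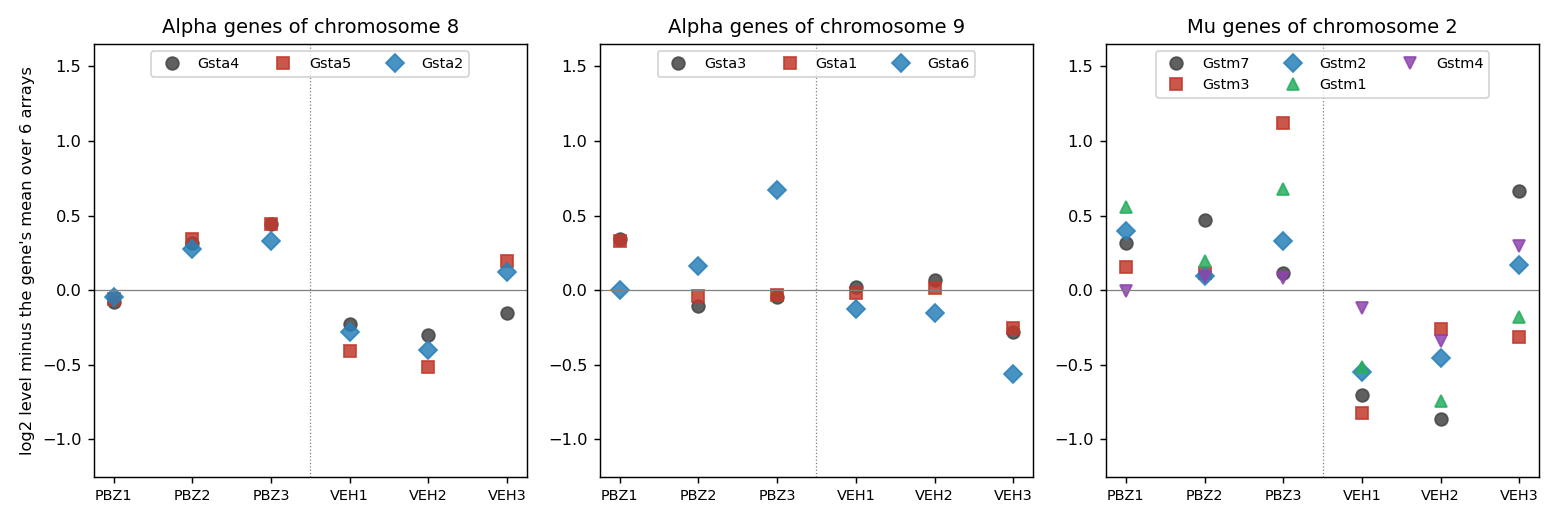
Level of GST genes on each array after taking off the gene's mean over the 6 arrays (log2 units). Panels show alpha genes of chromosome 8, alpha genes of chromosome 9 and, of the mu genes of chromosome 2, Gstm7, Gstm3, Gstm2, Gstm1 and Gstm4. PBZ is phenylbutazone and VEH vehicle, and each point is 1 array. Gsta2 and Gsta5 nearly coincide, as do Gsta1 and Gsta3, but vehicle 3 is high in Gsta2 and Gsta5 and low in Gsta1 and Gsta3.

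Gstt1, whose theta class enzyme acts on small halogenated compounds, had levels of 3.04, 2.90 and 3.09 in phenylbutazone rats, against 3.21, 3.56 and 3.01 in vehicle rats. The groups overlapped, with vehicle 2 the highest array. The difference was -0.25 ± 0.16 (SE, n = 3 per group), -0.0016 within slide 2 and -0.10 without vehicle 2. The theta gene Gstt2 stood at 0.13 ± 0.16, and its other probe at -0.071.

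Gstk1 had levels of 2.74, 2.89 and 2.90 in phenylbutazone rats, against 2.94, 2.93 and 2.92 in vehicle rats. The vehicle arrays were nearly equal, and phenylbutazone 1 was the lowest array. The groups did not overlap, but the difference was only -0.090 ± 0.094 (SE, n = 3 per group), smaller than its error, and it was -0.038 without phenylbutazone 1.

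Set side by side, the chosen members of the classes differed in size of difference. The pi gene Gstp1 stood at 1.16 (1.62 within slide 2). The mean of the 3 chosen mu genes was 0.81 (0.51 within slide 2). That of the 4 chosen alpha genes was 0.28 (0.28 within slide 2). The theta gene Gstt1 was at -0.25 and the kappa gene Gstk1 at -0.090. Tested genes of these classes that were not chosen often stood elsewhere. The mu genes Gstm4, Gstm5, Gstm6l and Gstm7 stood at 0.11, 0.13, 0.067 and 0.60. The pi gene Gstp3 stood at 0.049 and the theta gene Gstt2 at 0.13. The alpha genes Gsta5 and Gsta6 stood at 0.48 and 0.56. The class values here are therefore those of the chosen members and not of whole classes. Centred on its mean over the arrays, the alpha class mean was 0.14, 0.11 and 0.17 in phenylbutazone rats and -0.13, -0.15 and -0.14 in vehicle rats. It varied less among arrays of a group than Gsta2 or Gsta1 did, which had opposite high and low arrays. The mu class mean was 0.37, 0.14 and 0.71 in phenylbutazone rats and -0.63, -0.48 and -0.11 in vehicle rats, so that vehicle 3 was the vehicle array nearest to the treated range. No test was made between classes, since their members were chosen with these values known.

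**Figure D3:**
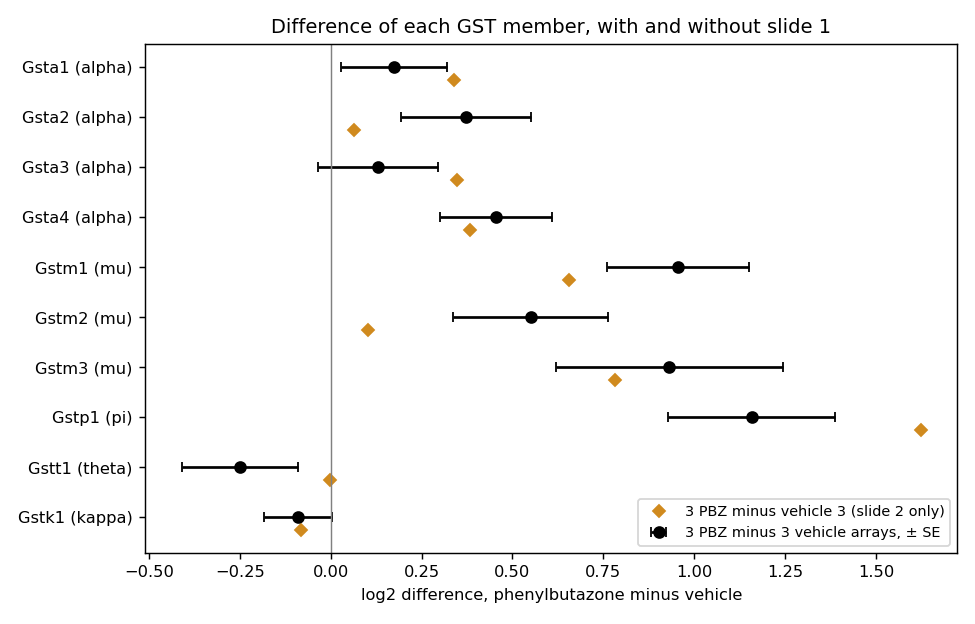
Log2 difference between phenylbutazone and vehicle for each GST gene: circles with bars are 3 phenylbutazone minus 3 vehicle arrays with the standard error of the limma fit, and diamonds are 3 phenylbutazone arrays minus vehicle 3, the only vehicle array on the same slide. Gstp1 has the largest difference either way, Gstm2 and Gsta2 come close to 0 within slide 2, and Gstt1 and Gstk1 are at or below 0.

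Among 21 further symbols of soluble and membrane-bound transferases, 17 had probes and 14 were tested. Of these, 13 had a higher mean in phenylbutazone rats, beside 52.8% of all genes tested. The median difference was 0.13, or 0.061 within slide 2, where the median of all genes was 0.055. Within slide 2 Gstm4, Gstm6l, Gstm7, Gsto1 and Mgst3 were below 0 and the others above. In 2 of the 14, Gsta6 and Mgst1, the groups did not overlap, both higher, which is near the 12.1% of all genes tested. Mgst1, the microsomal transferase that also reduces lipid hydroperoxides, had 3.85, 4.26 and 4.43 in phenylbutazone rats, against 3.83, 3.80 and 3.68 in vehicle rats, a difference of 0.41 ± 0.17 (SE, n = 3 per group). Mgst2 was dim at 0.48 ± 0.37, and Mgst3 stood at -0.080 ± 0.10. The omega class genes Gsto1 and Gsto2 stood at 0.023 ± 0.10 and 0.12 ± 0.13. Gstz1, which encodes maleylacetoacetate isomerase, stood at 0.24 ± 0.12, Gsta5 at 0.48 ± 0.23, Gstm5 at 0.13 ± 0.26 and Gstm6l at 0.067 ± 0.17. Hpgds, the sigma class enzyme that makes prostaglandin D, and Gstm6 exceeded background on 0 of 6 arrays and Gstt4 on 1, so these 3 genes were not tested.

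Glutathione itself is built by glutamate-cysteine ligase, of which Gclc encodes the catalytic and Gclm the modifier subunit. Of 20 listed genes of glutathione synthesis and recycling 17 were tested, with a median difference of -0.058. The groups did not overlap in 2 on the higher side and 2 on the lower, shares near the 12.1% and 9.39% of all genes tested. The higher ones were the glutathione peroxidase genes Gpx4 at 0.20 ± 0.092 and Gpx1 at 0.15 ± 0.10, although on the other Gpx4 probes the groups overlapped. The lower ones were Cbs, a gene of cysteine supply, at -0.24 ± 0.14, and Gsr, which encodes glutathione reductase, at -0.12 ± 0.097 (SE, n = 3 per group). Gclc had 3.81, 5.62 and 6.46 in phenylbutazone rats and 5.68, 5.90 and 3.80 in vehicle rats, so 1 array of each group was far below the others and the difference of 0.17 ± 0.83 was far smaller than its error; the other Gclc probe gave -0.071. Gclm was well above background only on vehicle arrays 1 and 2 and was not tested.

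Of 20 genes of conjugate export and mercapturate formation 19 were tested, with a median difference of 0.036, or 0.17 within slide 2. In 6 the groups did not overlap, all higher, beside 12.1% of all genes tested. The largest was Abcc4, an efflux pump of organic anions and glutathione conjugates, with 3.23, 2.97 and 3.02 in phenylbutazone rats, against 2.27, 2.19 and 1.84 in vehicle rats. Its difference was 0.97 ± 0.15 (SE, n = 3 per group), 1.23 within slide 2. Its other 3 probes had no overlap either. They gave 0.71, 0.70 and 0.88, but only 0.45, 0.69 and 0.67 within slide 2. The pump gene Abcc1 stood at 0.46 ± 0.15, but at 0.17 within slide 2 and with vehicle 3 above every treated value on its other 3 probes. The dipeptidase gene Dpep1 stood at 0.33 ± 0.15. Ggt1, the brush border gamma-glutamyl transferase, stood at -0.13 ± 0.31, with 4.38 in phenylbutazone 1 below the other arrays. The apical conjugate pump gene Abcc2 stood at 0.047 ± 0.20.

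All 15 listed regulators were tested, with a median difference of 0.083 that turned to -0.12 within slide 2. The groups did not overlap in 4 of the 15, all higher, beside 12.1% of all genes tested. Nfe2l2, which encodes NRF2, an activator of many GST genes, stood at 0.083 ± 0.12, and its other probe at -0.075. Maff, which encodes a small Maf protein that pairs with NRF2 family factors, had -4.19, -3.31 and -3.64 in phenylbutazone rats, against -4.83, -4.70 and -4.50 in vehicle rats, a difference of 0.96 ± 0.24 (SE, n = 3 per group). A second Maff probe was well above background on 2 of 6 arrays, 1 in each group, and on it the groups overlapped. Within slide 2 the tested Maff probe gave 0.79 and the second -0.019. The nuclear receptor genes Nr1i3 (CAR) and Nr1i2 (PXR) stood at 0.60 ± 0.19 and 0.18 ± 0.11. Nr1i3 was dim, and its other probes were well above background on 0 arrays. The other Nr1i2 probe gave 0.16, and on it vehicle 2, at 0.80, lay above phenylbutazone 1 and 2, so the groups overlapped.

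**Figure D4:**
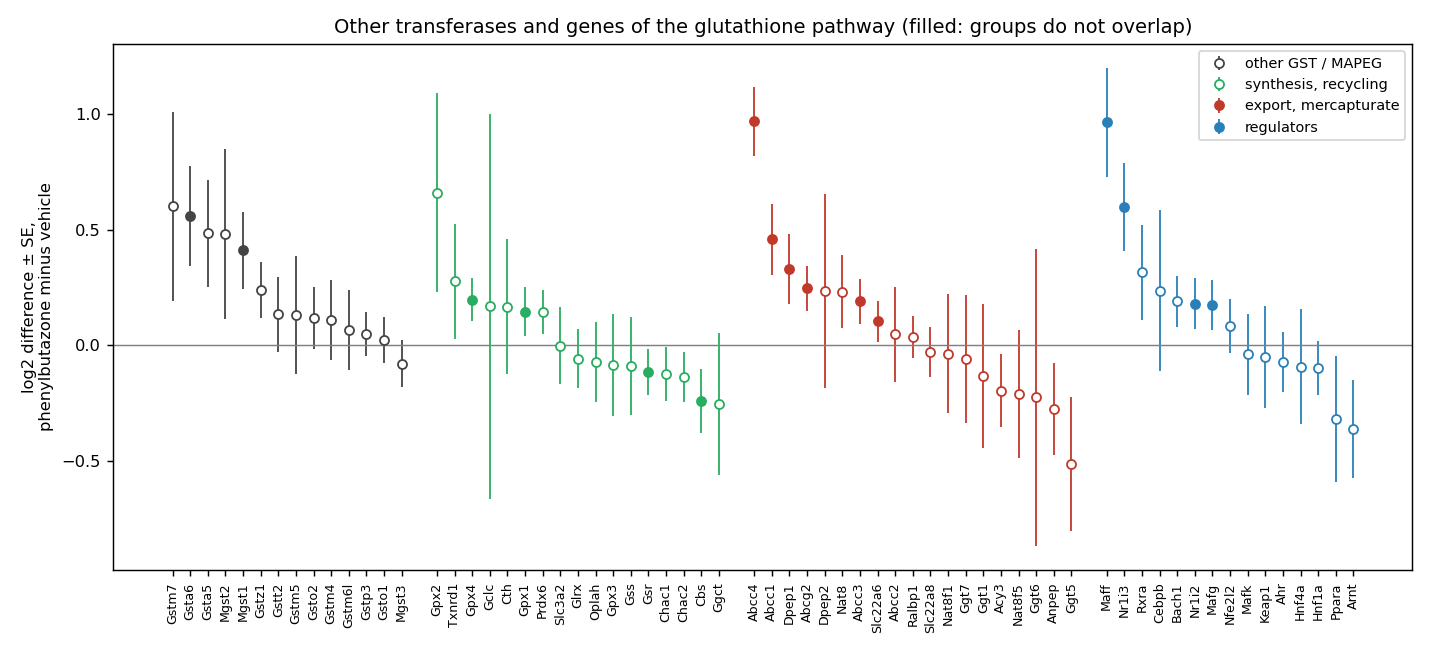
Log2 difference with standard error, phenylbutazone minus vehicle, for other transferase genes and for genes of glutathione synthesis and recycling, conjugate export and mercapturate formation, and regulation, sorted within each list; filled points mark genes whose groups did not overlap. Abcc4 at 0.97 and Maff at 0.96 are the largest, and the lists' medians lie between -0.058 and 0.13.

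Over the 6 arrays, the genes whose values ran most like those of Gstp1 among 12154 other genes with a symbol were Castor1, Rplp0, Mrpl12, Cd22 and Rps27, with Pearson r between 0.991 and 0.997. This is a ranking of likeness over arrays that share 2 groups and 2 slides, and the 5 genes' differences lay between 0.067 and 1.36.

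The labelled tissue could be checked against marker genes of renal cell types. All 12 proximal tubule markers were tested, with a median difference of -0.018. The groups did not overlap in 2 of the 12 on the higher side and 1 on the lower, beside 12.1% and 9.39% of all genes tested. The summed level of the 12 markers, in multiples of the 75th percentile, was 2360 to 2410 in phenylbutazone rats and 2310 to 2500 in vehicle rats. The 10 tested distal tubule and collecting duct markers, of 11 listed, summed to 179 to 257 in phenylbutazone rats and 192 to 218 in vehicle rats, and in 0 of them did the groups lie apart. The 6 thick ascending limb markers summed to 326 to 432 in phenylbutazone rats and 225 to 346 in vehicle rats. Umod weighs most in that sum, and over the 6 markers the median difference was -0.021, with 3 above 0 and none apart. Their mean deviation was highest in vehicle 2, at 0.22, and lowest in vehicle 3, at -0.29. The 9 tested erythrocyte markers of 11 listed summed to 821 to 1350 in phenylbutazone rats and 685 to 954 in vehicle rats, with a median difference of 0.48 and groups that overlapped in all 9. The part of these markers in the GST values was not tested. Hepatocyte markers, 5 of 6 tested, summed to 1.19 to 3.65 in phenylbutazone rats and 1.42 to 3.35 in vehicle rats, a sum in which Fga weighs most. Their median difference was -1.28, or -1.49 within slide 2, with 1 of 5 above 0 and groups that overlapped in all 5. Spread within groups was wide. Their mean deviation ran from -2.07 in phenylbutazone 1 to 0.82 in phenylbutazone 3, and from -0.99 in vehicle 1 to 1.80 in vehicle 2. In bulk RNA of this kind, more cells of a type and more transcript per cell cannot be told apart.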

How the data were processed

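Total RNA of renal cortex from 6 rats was labelled with Cy3 and hybridised to one-colour Agilent arrays. Per the submitters' processing notes, the image software was Agilent Feature Extraction 10.7. Scanner files as deposited give each spot's processed signal as an intensity, background-subtracted within the array and, per the file headers, laid out on rn4. The deposited value table holds a ratio (medians 0.105 to 0.110), which was close to processed intensity over the 75th percentile of the array. On phenylbutazone 1, for example, the divisor was 894 and the 75th percentile 891. Control spots (1439) and 40 outlier-flagged probes were left out. Log2 intensities were set to the 75th percentile, and 41006 probes that exceeded background on 3 or more of 6 arrays were kept. Accessions named 28206 probes (45.8%) through RefSeq (GRCr8). A gene, or an accession without a symbol, was its brightest probe. Differences were fitted with limma 3.58.1 in R 4.3.3 (lmFit, eBayes, two-sided, adjusted p threshold of 0.05), which was tested on simulated data. Promoter windows were read with Python 3.11.15 and aligned with Biopython 1.88. Named genes were the 10 members, all tested further transferases, 7 fixed pathway genes, up to 3 non-overlapping genes per direction and list, and 5 genes most like Gstp1. Members and lists were chosen with earlier results of these data known. Normexp, an alternative, used median spot signals in place of the mean signals first planned. The 3 arrays per group limit the precision, and alternatives are given at the end.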

Additional observations from a re-analysis of the deposited data

How the results depend on the processing

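No GST gene of the set had a limma adjusted p under 0.05 in any of 19 alternatives (lowest 0.0521, Gstm2 without vehicle replicate 3), and all kept their sign except Gsta3, which was -0.0093 without phenylbutazone replicate 1. The strict filter on dim probes left out Gstm3. The count of genes called, 0, was 1 with quantile normalization, 2 with normexp, 8 with an intensity trend and 1 with slide as a random block, and 0 to 814 when 1 replicate was left out, the highest without vehicle replicate 3. The median over the GST genes was 0.30 with normexp, 0.27 with slide as a random block and 0.32 to 0.51 with 1 replicate left out. The alpha mean was 0.33 with median scaling, 0.20 with quantile normalization, 0.21 with normexp and 0.33 with probes averaged; the mu mean was 0.51 with slide as a fixed block or on slide 2 alone. Of the 10 genes, 5 to 8 did not overlap with 1 replicate left out, the 8 without vehicle replicate 3 beside 43.7% of all genes and the others beside 27.6% to 32.6%. That count was 4 with median scaling, normexp or probes averaged, beside 23.3%, 22.5% and 20.5% of all genes. With the strict filter it was 4 of 9, beside 22.1% of all genes. The causes were not tested. Arrays with the same replicate number did not deviate together (correlations of -0.030, 0.011 and -0.074); with that number as a block limma called 0 genes and the median was 0.41. Signal near background limits Gstm3, whose difference was 0.29 with normexp.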

Other observations

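Gclc, which lies a few genes from Gsta4 on chromosome 8, had its treated arrays in the same order as Gsta4, Gsta5 and Gsta2, lowest in phenylbutazone 1. Unlike those genes, it had its lowest vehicle value in vehicle 3, where they had their highest. On its brighter probe phenylbutazone 1 stood at 3.81 and vehicle 3 at 3.80, while the other 4 arrays lay between 5.62 and 6.46. On its other probe these arrays stood at -0.94 and -0.55, and the other 4 between 0.96 and 1.88. Gsta1 and Gsta3 had their highest value in phenylbutazone 1 and their lowest in vehicle 3, and Gsta2 and Gsta5 their highest vehicle value in vehicle 3. These values were chosen after they were seen.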
